A study of Mus musculus with 6 samples.

Results

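The genes described here were 10 components and readouts of Wnt signalling, chosen by name and grouped by role: the secreted antagonists Frzb, Sfrp1, Sfrp2, Dkk3 and Wif1, the ligand Wnt5a, the target readouts Axin2 and Lef1, the transducer Ctnnb1 and the co-receptor Lrp6. All 10 were present among the 55416 genes of the table and all 10 passed the filter on low counts, which kept 15269 genes. RNA-seq had been run on primary mouse chondrocytes, the cells that build and maintain cartilage matrix, cultured in DMEM/F12 with serum. The siNC group (n = 3 libraries) received a scrambled small interfering RNA, and the siPkm2 group (n = 3) received one against Pkm2, the pyruvate kinase isoform that catalyses the last step of glycolysis. The labels gave siNC as WT and named no other agent for either group. The labels gave neonatal knee joints as the source, whereas the study's general methods described adult mice. The genotype label of the siPkm2 libraries read PKM2, PKM3 and PKM4 knockdown for replicates 1, 2 and 3, and the libraries were assigned by their titles.

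Wnt ligands bind a Frizzled receptor together with the co-receptor Lrp5 or Lrp6. In the canonical branch this blocks the destruction complex built on Axin and Apc, so that β-catenin, the product of Ctnnb1, accumulates, enters the nucleus and acts with the Tcf and Lef factors. Secreted antagonists act upstream. The Sfrp proteins, among them Frzb, and Wif1 bind the ligands themselves, while the Dickkopf proteins generally act on the co-receptor, Dkk3 being the divergent family member whose effect on Wnt signalling varies between systems. Axin2 is a feedback inhibitor that is itself a widely used transcriptional target of the pathway. In articular cartilage, Wnt activity is held within limits, and Frzb was first isolated from cartilage.

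Pkm was measured first as a check of the labels. Its level was 2335, 2746 and 1674 CPM (counts scaled to library size with TMM factors) in siNC replicates 1, 2 and 3, and 336, 541 and 309 CPM in siPkm2 replicates 1, 2 and 3. Every siPkm2 library lay below every siNC library. Its log2 fold change (siPkm2 over siNC) was -2.51 in edgeR's quasi-likelihood test, with a standard error (SE) of 0.33 derived from the test statistic. The adjusted p was 0.0738 after Benjamini-Hochberg correction over all genes tested. When the comparison was made within replicate numbers (the replicate block), the fold change was -2.53 (SE 0.13) and the adjusted p was 0.00932. Gene-level counts do not separate the PKM1 and PKM2 isoforms.

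The libraries held 22316996 to 25691029 estimated counts. The replicate 2 libraries stood apart from the others in both groups. The summed level of 12 chondrocyte markers was 4144 TPM (the authors' length-scaled unit) in siNC replicate 2 and 5597 TPM in siPkm2 replicate 2, against 16216 to 19033 TPM in the other libraries. Markers of fibroblasts, 8 of 8 above 1 TPM, summed to 1684 to 4886 TPM and were highest in the replicate 3 libraries of each group. Macrophage markers (4 of 8 above 1 TPM in any library) reached 119 and 88.1 TPM in siNC and siPkm2 replicate 2 and 11.8 to 27.0 TPM elsewhere, while the defining genes Ptprc and Adgre1 reached at most 0.03 and 0.10 TPM. The 7 osteoblast markers (6 above 1 TPM) summed to 64.1 to 348 TPM in siNC and 60.4 to 146 TPM in siPkm2, none of the 6 endothelial markers passed 1 TPM, and 2 of the 6 muscle markers did. A list of 15 interferon-stimulated genes summed to 49.7, 2573 and 88.1 TPM in siNC and to 1544, 4649 and 1118 TPM in siPkm2, in the order of replicates 1, 2 and 3. The part of these differences in the results for the Wnt genes was not tested, and in bulk RNA fewer cells of a type and less RNA per cell cannot be told apart.

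The members differed widely in level per transcript length. In siNC the mean TPM was 530.2 ± 685 for Sfrp2, 437 ± 26.2 for Ctnnb1 and 285 ± 121 for Dkk3 (SD, n = 3). Lrp6 and Frzb followed at 35.4 ± 14.9 and 34.3 ± 25.0 TPM, then Sfrp1 at 23.6 ± 26.3 and Wnt5a at 17.5 ± 0.892 TPM. Wif1 had 13.8 ± 8.53 TPM. Lef1 and Axin2 were the lowest members at 5.49 ± 2.17 and 3.88 ± 0.743 TPM. The spread over libraries covered most neighbours in this order: Sfrp2, which led the siNC means, ranged from 99.2 to 1320 TPM and overlapped both Ctnnb1 and Dkk3, and Lrp6, Frzb and Sfrp1 overlapped one another. In siPkm2, Ctnnb1 at 453 ± 77.9 TPM had the highest mean, with Sfrp2 at 91.4 ± 102 and Dkk3 at 54.3 ± 32.8 TPM, and no library of either antagonist reached the lowest Ctnnb1 library.

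**Figure D1:**
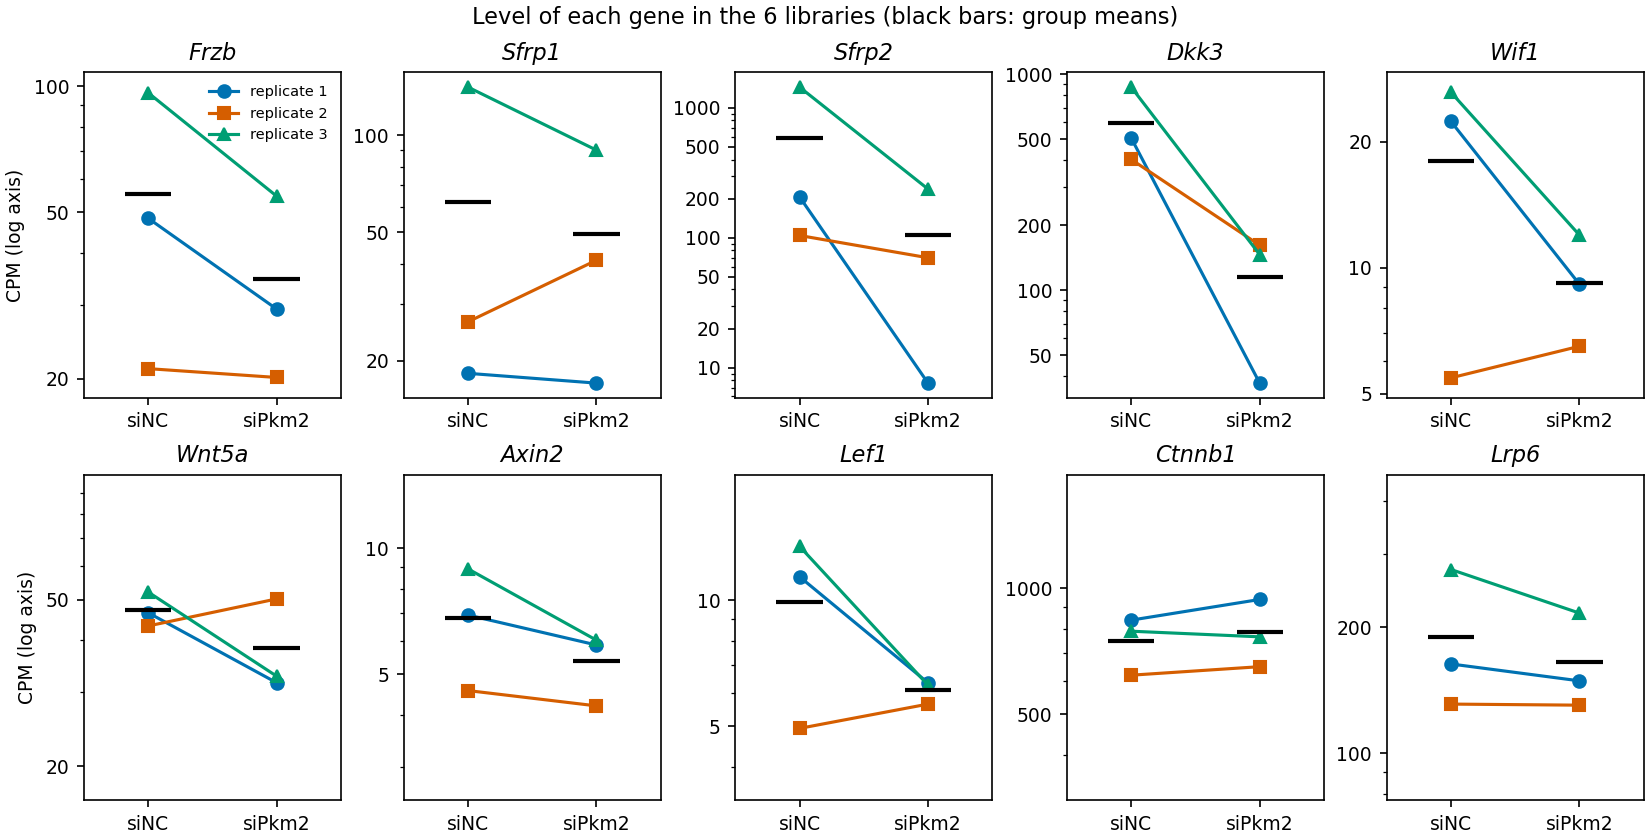
CPM on a log axis (y) in the siNC and siPkm2 groups (x), 1 panel per gene, with each point a library, lines joining libraries of the same replicate number and black bars the group means. Dkk3 is the gene whose siPkm2 libraries (37.2 to 162 CPM) all sit below its siNC libraries (404 to 873 CPM), whereas the replicate 3 points lead both groups for Frzb, Sfrp1, Sfrp2, Wif1, Axin2 and Lrp6.

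Across the 10 genes, 9 had a lower fitted level in siPkm2, as had 51.9% of all genes tested, and 1, Ctnnb1, a higher one. The median log2 fold change was -0.51, against -0.02 over all genes tested, and with the replicate block it was -0.44 against -0.01. Without the block, edgeR called none of the members at the study's threshold of an adjusted p under 0.05 and a fold over 2, where 0% of all genes were called. At an unadjusted p under 0.05, 1 member (Dkk3) was lower, where 9.19% of all genes were lower by this rule. With the block, Dkk3 was the 1 member called at the study's threshold, where 3.18% of all genes were called lower. At any fold it was again the 1 member that passed, where 10.8% of all genes passed as lower and 12.3% as higher.

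Dkk3 was the member with the clearest reduction. Its level was 507, 404 and 873 CPM in siNC replicates 1, 2 and 3 and 37.2, 162 and 146 CPM in siPkm2 replicates 1, 2 and 3. All siPkm2 libraries lay below all siNC libraries, which was the case for this member alone and for 12.3% of all genes tested. The means were 595 ± 246 and 115 ± 67.9 CPM (SD, n = 3), a 5.17-fold difference, and the exact permutation test (two-sided) gave p = 0.1, the smallest that 3 against 3 libraries allow. In edgeR the log2 fold change was -2.37 (SE 0.60, adjusted p = 0.145). Dkk3 fell in the fit with the replicate block, by 2.55 on the log2 scale (SE 0.47, adjusted p = 0.0225), with a 95% confidence interval of -3.73 to -1.36. Within replicate numbers 1, 2 and 3 it was 13.6-fold, 2.50-fold and 5.96-fold lower in siPkm2. The reduction was therefore seen in 3 of 3 numbers, with a range of sizes.

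Sfrp2 had a fold change as large as that of Dkk3 but a far wider spread. This ligand-binding antagonist stood at 207, 104 and 1447 CPM in siNC and at 7.60, 70.1 and 237 CPM in siPkm2. The siNC libraries alone spanned 13.9-fold, and siPkm2 replicate 3 lay above siNC replicates 1 and 2, so the groups overlapped. In edgeR its log2 fold change was -2.48 (SE 1.40, adjusted p = 0.414), and -2.59 (SE 0.81, adjusted p = 0.0723) with the replicate block, whose 95% interval was -4.63 to -0.54 before any correction for multiple testing. It was lower in siPkm2 by 27.2-fold, 1.48-fold and 6.10-fold within replicate numbers 1, 2 and 3. Without siNC replicate 3, the library with the highest level, the unblocked fold change was -0.57. For both Sfrp2 and Dkk3, number 1 had the largest difference and number 2 the smallest.

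The other ligand-binding antagonists among the members did not pass the edgeR test over all 6 libraries. Frzb, which sequesters Wnt ligands and is abundant in cartilage, was at 48.4, 21.2 and 96.5 CPM in siNC and at 29.4, 20.2 and 54.7 CPM in siPkm2. Its log2 differences within numbers 1, 2 and 3 were -0.72, -0.07 and -0.82. The fold change was not called without the block (-0.67, SE 0.60, adjusted p = 0.613) or with it (-0.55, SE 0.16, adjusted p = 0.0639). In DESeq2, an alternative test, the blocked value was -0.53 (SE 0.20, adjusted p = 0.0290), which did not reach a fold of 2. Without siNC replicate 3 the unblocked edgeR value was -0.0020. That fit kept siPkm2 replicate 3, the highest library of its group at 54.7 CPM, and so broke the pair.

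Wif1 stood at 22.4, 5.46 and 26.3 CPM in siNC and at 9.14, 6.50 and 12.0 CPM in siPkm2. As for Frzb, number 2 had the lowest level in both groups. The log2 difference of Wif1 was 0.25 in number 2, against -1.29 and -1.13 in numbers 1 and 3. For Wif1 the log2 fold change was -0.97 (SE 0.57, adjusted p = 0.431), or -0.77 (SE 0.32, adjusted p = 0.133) with the block. Without siNC replicate 3 the unblocked value was -0.60.

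Sfrp1, the third Sfrp member, gave 18.3, 26.4 and 141 CPM in siNC and 17.1, 41.0 and 90.0 CPM in siPkm2. The replicate 3 libraries exceeded all others in both groups, and the 3 differences did not share a direction (-0.10, 0.63 and -0.65). The log2 fold change of -0.33 (SE 0.91, adjusted p = 0.893) turned to 1.15 without siNC replicate 3 and to 0.08 without siPkm2 replicate 1, and was -0.05 (SE 0.24, adjusted p = 0.900) with the block. No direction can therefore be given for Sfrp1.

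Wnt5a, a ligand best known for β-catenin-independent signalling, showed the narrowest spread of the members in siNC, at 46.5, 43.2 and 52.1 CPM. In siPkm2 it stood at 31.7, 50.2 and 32.8 CPM, so that replicates 1 and 3 lay below every siNC library and replicate 2 between siNC replicates 1 and 3. For Wnt5a the log2 fold change was -0.31 (SE 0.21, adjusted p = 0.504), and -0.34 (SE 0.19, adjusted p = 0.235) with the block. The unblocked value was -0.19 without siPkm2 replicate 1, -0.21 without siPkm2 replicate 3 and -0.55 without siPkm2 replicate 2.

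The target readouts were scarce and did not pass the test. Axin2 was at 6.93, 4.57 and 8.93 CPM in siNC and at 5.87, 4.20 and 6.03 CPM in siPkm2. It was lower in siPkm2 in each number, by 0.24, 0.12 and 0.57 on the log2 scale, but the groups overlapped. Its log2 fold change was -0.34 (SE 0.32, adjusted p = 0.634), or -0.31 (SE 0.18, adjusted p = 0.244) with the block. Single libraries moved the unblocked value, to -0.0973 without siNC replicate 3, -0.19 without siPkm2 replicate 2 and -0.56 without siNC replicate 2. Lef1, a nuclear partner of β-catenin, was at 11.4, 4.94 and 13.4 CPM in siNC and at 6.34, 5.64 and 6.26 CPM in siPkm2. Its siPkm2 libraries were tightly grouped, and siNC replicate 2 lay below all of them. The log2 fold change was -0.70 (SE 0.38, adjusted p = 0.391), or -0.60 (SE 0.28, adjusted p = 0.169) with the block. Without siNC replicate 3 the unblocked value was -0.42.

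Ctnnb1 and Lrp6, the transducer and the co-receptor, differed little between the groups. Ctnnb1 was at 839, 620 and 790 CPM in siNC and at 940, 650 and 766 CPM in siPkm2, with differences of 0.16, 0.07 and -0.04 within numbers 1, 2 and 3. The log2 fold change was 0.07 (SE 0.22, adjusted p = 0.912), and with the block 0.06 (SE 0.09, adjusted p = 0.655), whose 95% interval placed siPkm2 at 88.6% to 123% of siNC. The sign of this small value was not fixed, since it was -0.0020 with upper-quartile scaling. RNA level does not report on the stability of the β-catenin protein.

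Lrp6 was at 163, 131 and 275 CPM in siNC and at 149, 130 and 216 CPM in siPkm2, highest in replicate 3 and lowest in replicate 2 of both groups. Its log2 fold change was -0.20 (SE 0.33, adjusted p = 0.810), and with the block -0.16 (SE 0.10, adjusted p = 0.264), an interval of 75.3% to 106% of siNC. Without siNC replicate 3 the unblocked value was 0.17.

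**Figure D2:**
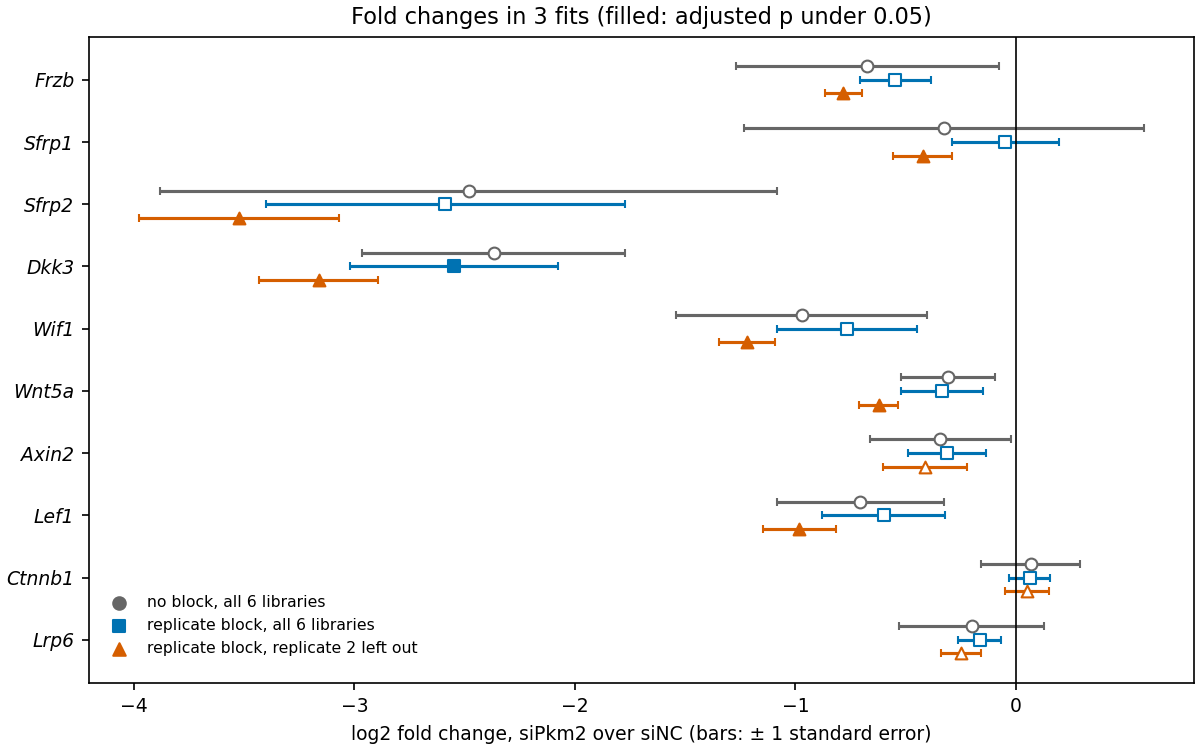
Log2 fold change of siPkm2 over siNC (x) for each gene (y) in edgeR without the block, with the replicate block, and with the block after both replicate 2 libraries were left out, with bars of ± 1 SE and filled symbols where the adjusted p is under 0.05. Dkk3 is filled in both blocked fits, 6 further genes are filled only once replicate 2 is left out, and Ctnnb1 stays near 0 in all 3.

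The spread of the members between replicate numbers was set beside that of all genes. In 5 of the 10 genes (Frzb, Sfrp2, Dkk3, Axin2 and Lrp6) siPkm2 was lower by CPM in all 3 numbers, a pattern held by 30.6% of all genes tested. In number 2 the log2 difference was only -0.07 for Frzb and -0.0085 for Lrp6. In TPM, Frzb went the other way there, at 13.08 in siNC and 13.68 in siPkm2. No member was higher in all 3, whereas 4660 of the 15269 genes tested were. A test of the replicate number itself, added after the data had been seen, passed for Frzb (adjusted p = 0.0105), Sfrp1 (0.00989) and Lrp6 (0.0143), 3 of 10 members, where 26.1% of all genes passed in the same edgeR fit. Ctnnb1 did not pass this test (adjusted p = 0.0630). As a share of the sum of squares of log2(CPM + 1) over the 6 libraries, the replicate number took 94.6% for Sfrp1, 93.4% for Ctnnb1, 92.6% for Lrp6 and 84.4% for Frzb. The group took 74.1% for Dkk3, 35.3% for Wnt5a and 34.0% for Sfrp2, and at most 30.5% for the other members. The median over the members was 68.8% for the replicate number and 19.1% for the group, against 56.6% and 24.3% over all genes.

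**Figure D3:**
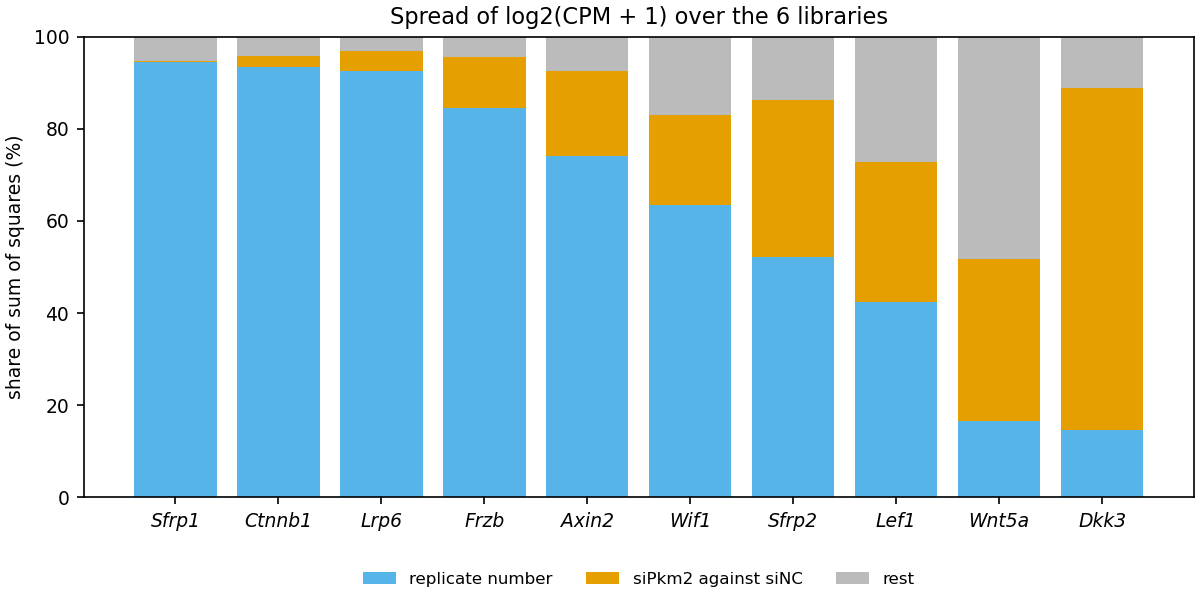
Share of the sum of squares of log2(CPM + 1) over the 6 libraries (y, percent) that goes with the replicate number, with siPkm2 against siNC and with the rest, for each gene (x). Sfrp1, Ctnnb1 and Lrp6 are almost wholly taken by the replicate number, at 92.6% to 94.6%, while in Dkk3 the group takes 74.1%.

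When both replicate 2 libraries were left out of the blocked fit, 7 members were lower with an adjusted p under 0.05 at any fold, where 19.3% of 15185 genes were lower by this rule. They were Sfrp2 (log2 fold change -3.52, adjusted p = 0.00181), Dkk3 (-3.16, 4.5e-04), Wif1 (-1.22, 9.18e-04), Lef1 (-0.98, 0.00497), Frzb (-0.78, 9.75e-04), Wnt5a (-0.62, 0.00260) and Sfrp1 (-0.42, 0.0449). Sfrp2, Dkk3 and Wif1 also passed a fold of 2, where 889 of the 15185 genes were called lower. Axin2, Ctnnb1 and Lrp6 did not pass at -0.41, 0.05 and -0.25. This fit has 2 libraries a group, and whether the response differed between number 2 and the others was not tested.

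Several members varied together over the 6 libraries, which share their replicate numbers. Pearson's r of log2(CPM + 1), given as a description, was 0.97 for Wif1 with Lef1, 0.96 for Frzb with Lrp6, 0.95 for Frzb with Axin2 and 0.88 for Sfrp2 with Dkk3. Ctnnb1 ran against Dkk3 at -0.36 and against Wnt5a at -0.46. Among 11235 genes with a mean of at least 5 CPM, those most like Frzb were Tnrc6c, Stx5a and Galnt4 (r 0.995, 0.994 and 0.993). Those most like Wnt5a were Zfp661, Tmem132a and Vav2 (0.997, 0.989 and 0.982), and those most like Axin2 were Wdr6, Zbtb7c and Ppp2r3d (0.995, 0.994 and 0.992). None of these 9 genes passed the edgeR test, their adjusted p with the block running upward from 0.0767.

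Promoter sequence was examined for the core word CTTTG, which the Tcf and Lef factors at the end of the canonical branch recognise, and the 3 members with the word are shown. RefSeq windows on GRCm38.p6, from 250 bases before to 50 after the annotated start, were at hand for 6 members and gave 10 windows. In the lines that follow, capitals mark CTTTG or its reverse complement and the sequence runs 5′ to 3′ on the gene's strand, at chr2:80447347-80447646, minus strand for Frzb, chr10:121033754-121034053, plus strand for Wif1 and chr3:131110047-131110346, plus strand for the first of 4 Lef1 windows.
Frzb: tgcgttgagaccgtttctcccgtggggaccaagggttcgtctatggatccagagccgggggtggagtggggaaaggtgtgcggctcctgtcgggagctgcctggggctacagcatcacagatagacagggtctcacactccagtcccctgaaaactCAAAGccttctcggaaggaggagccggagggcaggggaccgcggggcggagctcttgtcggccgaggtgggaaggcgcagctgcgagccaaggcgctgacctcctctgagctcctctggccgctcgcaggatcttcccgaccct
Wif1: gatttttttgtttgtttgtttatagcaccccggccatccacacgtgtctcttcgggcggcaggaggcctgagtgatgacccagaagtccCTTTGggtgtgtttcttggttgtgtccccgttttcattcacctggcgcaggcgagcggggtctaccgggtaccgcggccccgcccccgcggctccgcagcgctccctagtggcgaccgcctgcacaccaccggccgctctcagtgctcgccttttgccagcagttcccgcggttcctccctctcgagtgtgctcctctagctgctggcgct
Lef1: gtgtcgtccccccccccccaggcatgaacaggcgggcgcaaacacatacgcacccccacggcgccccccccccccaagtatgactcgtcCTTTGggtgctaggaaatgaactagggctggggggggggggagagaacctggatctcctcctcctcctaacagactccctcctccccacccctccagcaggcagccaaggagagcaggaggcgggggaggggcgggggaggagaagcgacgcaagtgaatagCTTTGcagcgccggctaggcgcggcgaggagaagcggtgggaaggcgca
The word began 94 bases before the start in Frzb, on the opposite strand, and 161 bases before it in both Wif1 and Lef1, on the gene's strand. The Lef1 window shown held a further copy just after the start, also on the gene's strand. The word occurred in 6 of the 10 windows, which belong to 3 of the 6 members and of which 4 are of Lef1, and in 53.9% of all 32851 windows. The 10 windows are not all separate. The Lef1 window shown overlaps another Lef1 window that holds the same copies, and the windows of Ctnnb1 overlap each other. The windows of Axin2, Sfrp2 and Ctnnb1 did not hold it. The longer word CTTTGAT, which contains CTTTG, was found on neither strand of the 10 windows, against 3.73% of all windows. The share of G and C was 64.7% in the Frzb window, 63.0% in Wif1 and 70.0% in Axin2, and ran from 43.7% to 67.3% over the 4 Lef1 windows, against a median of 52.7% over all windows. A match is a description of the letters and not a binding site, and draws no link to the fold changes.

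By GENCODE M21 (GRCm38), Dkk3 lies at chr7:112116017-112159057 on the minus strand, Sfrp2 at chr3:83766321-83774316 on the plus strand and Frzb at chr2:80411970-80447625 on the minus strand. Sfrp2 overlaps the antisense gene Gm26771 over 464 bases, Axin2 overlaps Gm11670 over 2706 bases, Wnt5a overlaps Gm2670 over 3319 bases, and Lef1 and Ctnnb1 have opposite-strand partners too. On the same strand, Lef1 overlaps Gm42449 over 2258 bases and Ctnnb1 overlaps Mir7090 over 62 bases. Strand use in the counting was not given in the sources used here, so reads from opposite-strand partners could not be told apart. Strand would not separate reads from the same-strand partners. Dkk3, Frzb, Sfrp1, Wif1 and Lrp6 have no overlapping gene in this annotation.

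The wider pathway was described with a list of 116 Wnt gene names in 9 roles, of which 114 were in the table and 95 were tested. The names not found, Wisp1 and Wisp2, are older symbols of Ccn4 and Ccn5, which the list also holds. Without the block none was called, and 13 (13.7%) were lower and 4 (4.21%) higher at an unadjusted p under 0.05, against 9.19% and 8.43% of all genes. With the block, 18 (18.9%) fell and 4 (4.21%) rose at an adjusted p under 0.05, against 10.8% and 12.3% of all genes. With the fold over 2 these counts were 6 (6.32%) and 2 (2.11%), against 3.18% and 2.65%. Of the 95, 62 (65.3%) had a lower fitted level, against 51.9% of all genes, and the median log2 fold change was -0.16, or -0.14 over the 85 genes that are not members, against -0.02 over all genes. The Wnt pathway annotation deposited with the table, which holds 8 of the members and shares 88 genes with the list, had 140 genes tested, of which 22 (15.7%) fell and 8 (5.71%) rose with the block, against the same 10.8% and 12.3%. These shares are descriptions, and no difference between the lists and the rest of the genes was tested.

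Among 17 antagonists tested, 3 (17.6%) fell with the block (Dkk3, Dact2 and Sfrp4) and none rose, against 10.8% and 12.3% of all genes. A negative unblocked value was found for 14 (82.4%), against 51.9% of all genes, with a median of -0.67. These 17 include the members Frzb, Sfrp1, Sfrp2, Dkk3 and Wif1, which were chosen with earlier results of these data known. Neither value was computed for the antagonists without these members. Sfrp4, another ligand-binding Sfrp, had a blocked log2 fold change of -0.94 (SE 0.17, adjusted p = 0.0202). Dact2, an intracellular modulator of the pathway, was at 0.0914 to 2.63 CPM, with -1.74 (adjusted p = 0.0378). Of the antagonists below the filter, Dkk1 and Sost reached at most 0.12 and 0.08 TPM, and Dkk4 was listed at 0 in every library.

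Of 11 ligands tested, 1 (9.09%) passed in each direction, against 10.8% lower and 12.3% higher of all genes: Wnt10b fell (-1.40, SE 0.14, adjusted p = 0.0109) and Wnt16 rose (1.26, SE 0.21, adjusted p = 0.0187). Wnt10b, a canonical ligand, was at 24.3, 18.3 and 14.8 CPM in siNC and at 10.9, 6.61 and 4.94 CPM in siPkm2, with no overlap. Wnt16, a ligand linked to joints and bone, reached 5.08 CPM in siNC and 14.3 CPM in siPkm2, both in replicate 3, and was higher in siPkm2 within each number. Neither of the 2 secretion genes passed, and Wls, the carrier that takes ligands to the cell surface, had a blocked value of 0.02 (adjusted p = 0.920).

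At the cell surface, 4 of 16 receptors and co-receptors (25.0%) fell with the block and none rose, against 10.8% and 12.3% of all genes. Fzd1 had the lowest p (-0.80, SE 0.08, adjusted p = 0.0109), at 95.7 to 128 CPM in siNC and 56.6 to 72.2 CPM in siPkm2. Fzd7 (-0.76, adjusted p = 0.0475) and Fzd4 (-0.55, adjusted p = 0.0231) fell as well, and the fourth was Fzd5. Ryk, the receptor with the highest mean at 117 TPM, had a value of 0.02 (adjusted p = 0.851). Among the 6 genes tested for R-spondins, which stabilise Wnt receptors, and receptor turnover, Rspo2 (-0.63, adjusted p = 0.0161) and the R-spondin receptor Lgr5 (-1.24, adjusted p = 0.0206) fell, and Lgr6 rose (2.37, adjusted p = 0.0434). Lgr6 was scarce, at 0.601, 6.47 and 0.482 CPM in siNC and 9.18, 12.4 and 3.84 CPM in siPkm2, and the groups overlapped. In TPM its replicate 2 went the other way, at 4.75 in siNC and 3.84 in siPkm2. Blocked limma on log2(TPM + 0.5) called no gene of the Wnt list higher at the study's threshold.

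For the roles inside the cell the same 10.8% lower and 12.3% higher of all genes apply. In the cytoplasmic group 3 of 17 genes tested (17.6%) fell and 1 (5.88%) rose. Of these, Tnks, which marks Axin for degradation (-0.45, adjusted p = 0.0189), Apc2 (-1.51, 0.0240) and Ctnnbip1, an inhibitor of the β-catenin and Tcf complex (-0.89, 0.0373), fell with the block, and Gsk3a, a kinase of the destruction complex, rose (0.37, 0.0259). Of 12 nuclear genes 4 (33.3%) fell and none rose: Tcf7l2 (-0.51, adjusted p = 0.0404), the co-activator Pygo1 (-1.05, 0.0424) and Tcf7 (-0.73, 0.0442) fell, the fourth was Tle2, and Bcl9l, the nuclear gene with the highest mean TPM, had -0.04 (0.832). Of 12 target readouts 3 (25.0%) fell and none rose: Ccn5 (-0.62, adjusted p = 0.0190), Lgr5 and Tcf7 fell, the latter pair being counted in other roles too. In the planar polarity and calcium arm, with 10 genes tested, none fell and 1, the cadherin Celsr2, rose (0.68, adjusted p = 0.0257), and Nfatc4 had 0.25 (0.127).

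**Figure D4:**
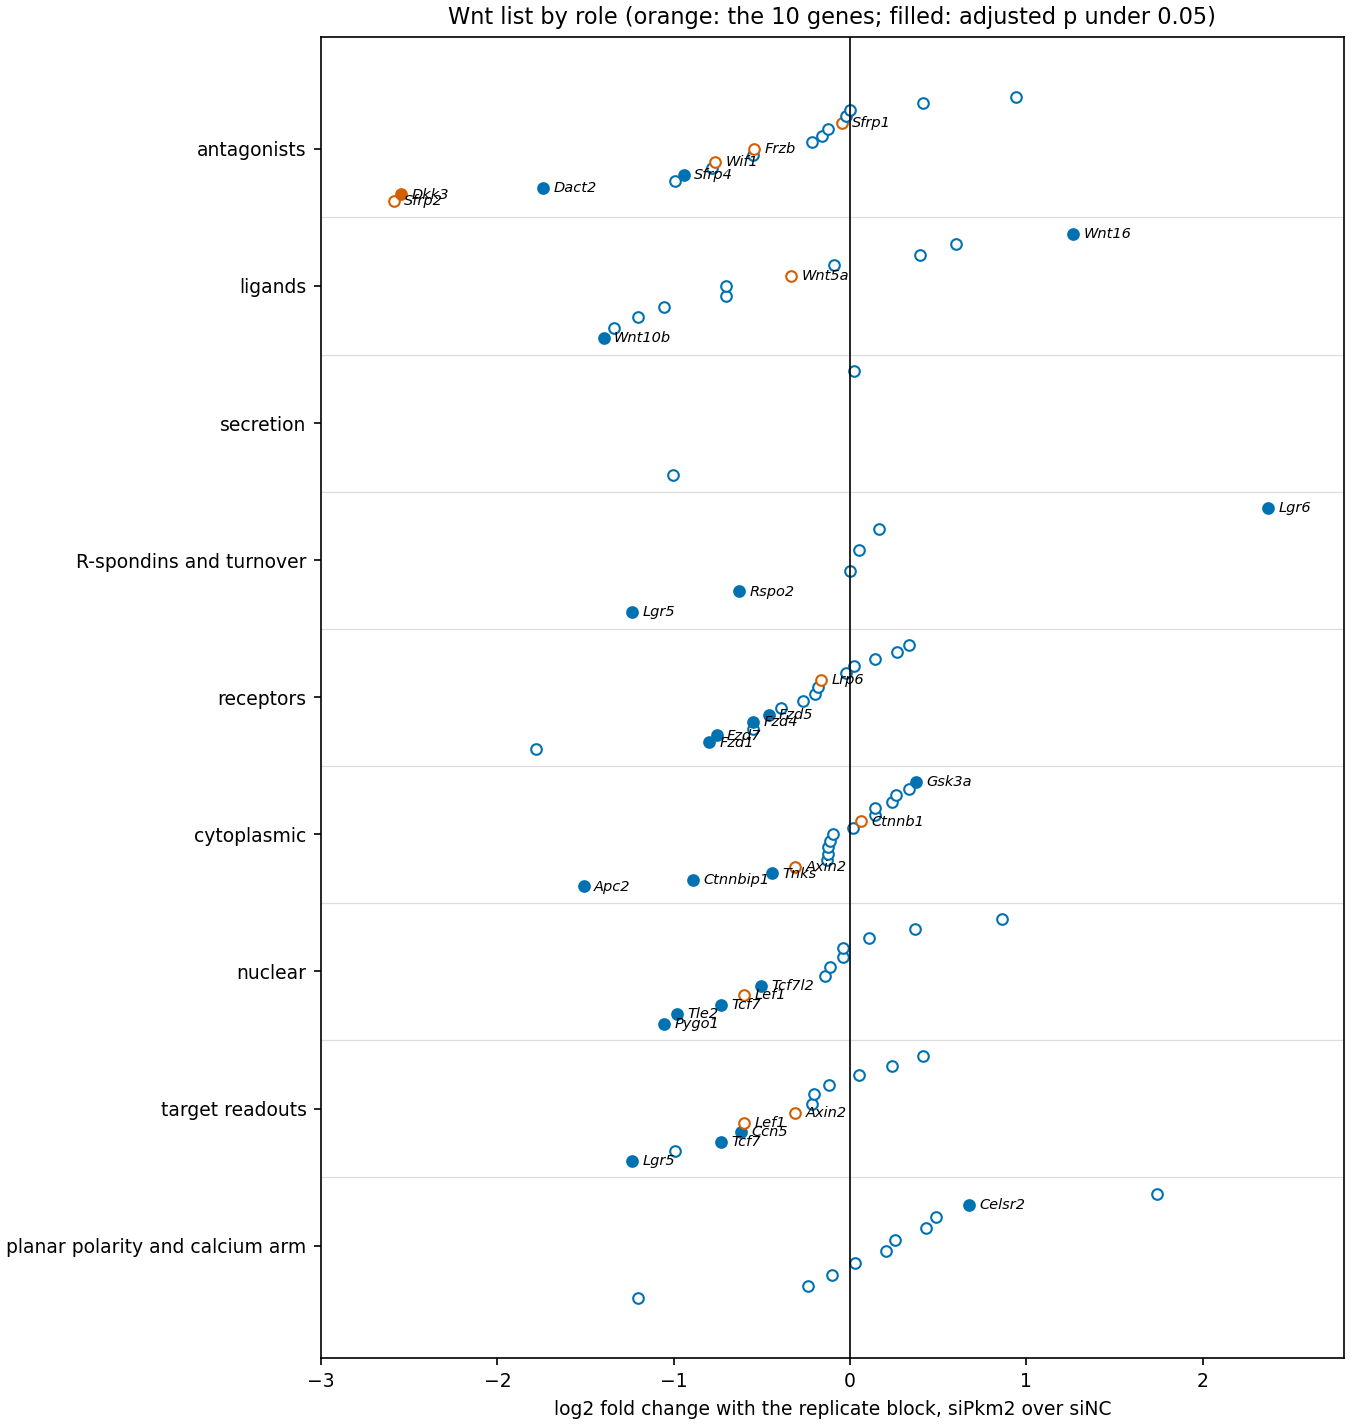
Log2 fold change of siPkm2 over siNC with the replicate block (x) for the tested genes of the Wnt list, ordered within each role (y), with members in orange and filled points where the adjusted p is under 0.05. Dkk3 and Sfrp2 lie farthest to the left at -2.55 and -2.59, and Lgr6 farthest to the right at 2.37.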

How the data were processed

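RNA-seq of 6 libraries of primary mouse chondrocytes (siNC and siPkm2, n = 3 each) was analysed. The authors deposited 1 table of estimated counts per gene, which are not scaled to depth, and of TPM per library, with the gene length as another column. It also holds mean TPM columns and the authors' own comparison (fold changes, p-values, adjusted p-values and significance marks), which were not used. Each library's own deposited file repeats its TPM. The submitters' processing notes name edgeR and mm9. The aligner, the counting tool and the use of strand were not given in the sources used here, and the table holds no coordinates. Of the gene identifiers, 52083 (94.0%) were in GENCODE M21.

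After rounding, the estimated counts were analysed in edgeR 4.0.16 (R 4.3.3) with TMM factors, filterByExpr and the quasi-likelihood test on the 2 groups. p-values were corrected by Benjamini-Hochberg over the 15269 genes kept. A gene was called at an adjusted p under 0.05 and a fold over 2, as in the study's methods. CPM and fold changes were computed from the counts. The fit was repeated with the replicate number as a block. Deviations from the group means of log2(CPM + 1) correlated at 0.737, 0.808 and 0.750 between libraries of the same number. Between different numbers they correlated at -0.718 to 0.245. Deviations cancel out within a group, so positive values for the same number pull those between different numbers downward by construction. The numbers were taken as pairs from these values. The labels do not say what a number marks, nor whether libraries came from separate animals, so p-values measure the spread between these libraries. Alternatives were upper-quartile scaling, other count filters, DESeq2 1.42.0, limma 3.58.1 on log2(TPM + 0.5), and each library left out in turn. Single libraries were left out of the unblocked fit. The other library of the same number stayed in, so these values also carry differences between the numbers. The fitting code was tested on simulated data. The total counts were 22316996 to 25691029 per library, of which Axin2, a low gene, had 108 to 204. The part of depth in the precision of low genes was not tested.

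The members and the gene lists were chosen with earlier results of these data known. From the Wnt list, the text names the 20 genes with the lowest p among those with an adjusted p under 0.05 in the blocked fit, the gene with the highest mean TPM in each role, and the genes most like Frzb, Wnt5a and Axin2. Fzd5, Tle2 and the low antagonists were named after their values were seen, to complete counts. No siRNA or protein sequence was used here.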

Additional observations from a re-analysis of the deposited data

How the results depend on the processing

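At the study's threshold 0 genes were called, 3 with upper-quartile factors, 9 with no filter, 3 with at least 10 counts in every library, 1 with limma on log2(TPM + 0.5) and 430 with DESeq2, which tests the counts without edgeR's quasi-likelihood spread. With the replicate block the count was 890 in edgeR, 1028 in DESeq2, 694 in limma, 3524 at any fold and 1639 without both replicate 2 libraries. Leaving out 1 library gave 0 to 105, the highest without siNC replicate 2. The members called numbered 0, then 1 with DESeq2 (Dkk3), and with the block 1 in edgeR, 2 in DESeq2 (Dkk3 and Sfrp2), 1 in limma, 1 at any fold and 3 without both replicate 2 libraries. For the Wnt list 0 became 2 with DESeq2 and, with the block, 8 in edgeR, 9 in DESeq2, 2 in limma, 22 at any fold and 18 without replicate 2. For the deposited Wnt annotation 0 became 1 and, in the same order, 6, 8, 3, 30 and 20. Leaving out any single library gave 0 for these 3 counts. The causes were not tested.

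The log2 fold change of Pkm passed at -2.50 with DESeq2, and with the block at -2.53 in edgeR, -2.52 in DESeq2, -2.53 in limma and -2.63 without both replicate 2 libraries. It ranged from -2.80 to -2.34 with 1 library left out, and passed at -2.34 without siNC replicate 2 (adjusted p = 0.0495).

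Of 160 values of the members under alternatives, 146 kept their direction and side of the threshold, 8 passed it and 6 changed sign. The sign of Ctnnb1 changed to -0.0020 with upper-quartile factors, to -0.05 without siNC replicate 2 and to -0.0877 without siPkm2 replicate 1, and it ranged from -0.0877 to 0.19 with 1 library left out. Lrp6 changed to 0.17 without siNC replicate 3 (range -0.44 to 0.17), and Sfrp1 to 1.15 without siNC replicate 3 and 0.08 without siPkm2 replicate 1 (range -1.09 to 1.15). With 1 library left out, Dkk3 ranged from -2.69 to -1.95 and Sfrp2 from -3.91 to -0.57, the latter without siNC replicate 3. In edgeR and in limma, over all 6 libraries, the block changed no call of a member other than Dkk3. In DESeq2 it changed that of Sfrp2, whose adjusted p was 0.354 without the block and 0.0362 with it (-2.63). With 1 library left out, Wif1 ranged from -1.40 to -0.60, Lef1 from -1.03 to -0.42 and Wnt5a from -0.55 to -0.19.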
